A study of Mus musculus with 24 samples.

Results

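The 34 genes described here encode chaperones, folding enzymes, stress sensors and degradation factors of the endoplasmic reticulum (ER), many of them known targets of the unfolded protein response. They were looked up by gene symbol in a table of 47729 genes, from a list drawn up with earlier results of these data known, and all 34 were found. RNA-seq had been run on transplanted mouse mammary tumours in 6 groups of 4 libraries, 24 in all. The tumours arose in MMTV-Wnt1 transgenic mice of the stock B6SJL-Tg(Wnt1)1Hev/J, in which a viral promoter active in the mammary gland drives the growth factor gene Wnt1. Diced tumour was placed into C57BL/6J hosts, and a volume of about 200 mm3 marked day 1. Hosts were then given vehicle, or oral E7386 at 25 or 50 mg/kg per dose with 2 doses a day. Day 4 tumours had 3 days of treatment and day 8 tumours had 7. E7386 is known to modulate binding between β-catenin and CBP, a coactivator of Wnt target genes. Every group, vehicle included, thus carried the Wnt1 transgene and host cells beside tumour cells. Host age and the number of donor tumours are not given in the sources.

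Secreted and membrane proteins enter the ER through the Sec61 channel and fold there with the help of the HSP70 chaperone BiP (Hspa5), the HSP90 paralogue GRP94 (Hsp90b1), lectin chaperones and protein disulfide isomerases. Proteins that fail to fold are passed back to the cytosol and degraded, a route called ER-associated degradation. When unfolded proteins accumulate, the sensors IRE1 (Ern1), ATF6 and PERK switch on the unfolded protein response: ATF6 is cut to a transcription factor, IRE1 splices the Xbp1 mRNA, and PERK slows translation and raises ATF4. ATF6 and XBP1 are known to bind ER stress response elements in the promoters of chaperone genes. Secretory tissues such as the mammary gland depend on this machinery. The values used here are per gene, so neither the splicing of Xbp1 nor the cutting of ATF6 can be seen in them.

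The promoters show which members carry the classical elements. RefSeq promoters (GRCm38.p6, 250 bases before to 50 after each start, 300 in all) matched 28 of the 34 genes. Manf, Hyou1, Atf6, Derl1, Sec61a1 and Sil1 had no entry. The ER stress response element (ERSE), searched as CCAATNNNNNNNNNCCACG on both strands, lay in a promoter of 10 of the 28 genes (35.7%), against 37 of all 27025 genes in the table (0.137%). ERSE-II, searched as ATTGGNCCACG on both strands, lay in 2 of the 28 (12 of 27025, or 0.0444%). The unfolded protein response element TGACGTGG was found in 0 of the 28 (193 of 27025, or 0.714%). An ATF4-type element, TGATGNAA, was added to the search after the values had been seen. It occurred in 1 member, Herpud1, and in 1219 of 27025 genes (4.51%). No match overlapped another in these promoters, and a match is a run of letters, not evidence that a factor binds there. Many members are known targets of the unfolded protein response, so their larger share of ERSE carriers is tied to how they were chosen. The elements are shown because they separate the members into carriers and others, with the fixed bases in capitals and positions counted from the RefSeq start. They are written 5′ to 3′ on the strand that holds the match, which is the strand opposite to the gene for Creld2, Calr, Ero1lb, Derl3, the second Hsp90b1 element and the TGATGNAA match of Herpud1.
Hspa5 ERSE, -65 to -47, chr2:34772025-34772043: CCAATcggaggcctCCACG
Hsp90b1 ERSE, -212 to -194, chr10:86705638-86705656: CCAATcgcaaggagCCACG
Hsp90b1 ERSE, -107 to -89, chr10:86705533-86705551: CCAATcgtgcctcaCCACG
Dnajc3 ERSE, -105 to -87, chr14:118937827-118937845: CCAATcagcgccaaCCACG
Creld2 ERSE, -126 to -108, chr15:88819520-88819538: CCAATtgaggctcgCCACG
Calr ERSE, -162 to -144, chr8:84847075-84847093: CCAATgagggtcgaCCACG
Canx ERSE, -145 to -127, chr11:50325800-50325818: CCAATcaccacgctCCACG
Pdia6 ERSE, -98 to -80, chr12:17266491-17266509: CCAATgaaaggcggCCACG
Ero1lb ERSE, -201 to -183, chr13:12565682-12565700: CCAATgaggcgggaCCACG
Syvn1 ERSE, -44 to -26, chr19:6046532-6046550: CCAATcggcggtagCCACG
Derl3 ERSE, -156 to -138, chr10:75893242-75893260: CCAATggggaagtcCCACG
Dnajb11 ERSE-II, 8 to 18, chr16:22857852-22857862: ATTGGcCCACG
Herpud1 ERSE-II, -52 to -42, chr8:94386377-94386387: ATTGGgCCACG
Herpud1 ATF4-type element, -112 to -105, chr8:94386317-94386324: TGATGcAA

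**Figure D1:**
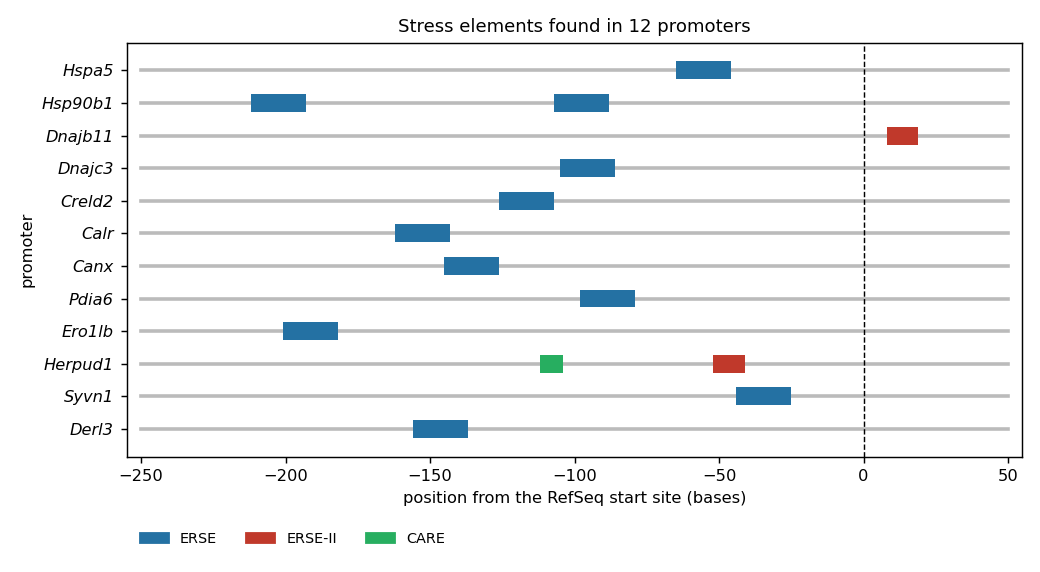
Positions of the ERSE, ERSE-II and ATF4-type matches in the 12 member promoters that hold one, in bases from the RefSeq start (x axis), 1 gene per line. The ERSE matches lie between positions -212 and -26, and Hsp90b1 holds 2 of them.

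The 200 bases before the start are given for 4 genes that changed in opposite directions: Hspa5, Creld2 and Canx, which carry ERSE and fell, and Herpud1, which carries ERSE-II and the ATF4-type letters and rose. Each runs 5′ to 3′ on the strand of its gene (minus for Canx, plus for the others), and the capitals mark the element, read as its reverse complement where the match is on the other strand. The RefSeq start of Hspa5 used here lies 120 bases downstream of the start of the gene in GENCODE M21. These 4 genes were picked by their changes, so they do not tie an element to a direction. Pdia4 and Atf6b fell without an ERSE match, and Dnajb11, which carries ERSE-II, had a negative change that did not pass.
Hspa5, chr2:34771890-34772089: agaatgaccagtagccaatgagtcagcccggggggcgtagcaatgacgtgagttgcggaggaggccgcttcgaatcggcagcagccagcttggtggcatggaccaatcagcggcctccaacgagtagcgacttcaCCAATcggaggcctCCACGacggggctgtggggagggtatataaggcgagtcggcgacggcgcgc
Creld2, chr15:88819446-88819645: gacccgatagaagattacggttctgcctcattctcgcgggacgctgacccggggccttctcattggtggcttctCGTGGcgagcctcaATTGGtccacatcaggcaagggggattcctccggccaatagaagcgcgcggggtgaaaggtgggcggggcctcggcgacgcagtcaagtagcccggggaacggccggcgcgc
Canx, chr11:50325674-50325873: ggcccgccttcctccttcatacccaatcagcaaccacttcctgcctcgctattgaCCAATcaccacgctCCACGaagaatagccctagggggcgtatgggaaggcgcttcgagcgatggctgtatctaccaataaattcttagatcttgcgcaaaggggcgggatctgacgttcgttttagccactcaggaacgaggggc
Herpud1, chr8:94386229-94386428: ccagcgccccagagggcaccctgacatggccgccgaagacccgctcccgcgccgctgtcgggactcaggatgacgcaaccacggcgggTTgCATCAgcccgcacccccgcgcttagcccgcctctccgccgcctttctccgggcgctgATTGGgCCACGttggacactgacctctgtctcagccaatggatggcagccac

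Levels are in TPM, a share of all transcripts in the library that is corrected for gene length, and each library held between 14496 and 15127 genes at 1 TPM or more. Together the 34 genes took 0.41% to 0.597% of the total. Averaged over the 24 libraries, calreticulin (Calr) was the highest at 982 TPM, followed by Hsp90b1 at 482, the disulfide isomerase P4hb at 462, the prolyl isomerase Ppib at 355 and calnexin (Canx) at 333 TPM. The lowest were the oxidase Ero1lb at 2.19 TPM, Derl3 at 2.81 and Pdia5 at 9.69 TPM. All 34 passed the filter of 1 TPM in at least 4 libraries, as did 15736 genes in all. Exons of 7 members (Hsp90b1, Manf, Pdia3, Pdia6, Ppib, Syvn1 and Derl2) overlap those of a gene at 1 TPM or more on the opposite strand. Those of Hsp90b1 and Manf also overlap a gene on the same strand. Whether counting used the strand is not stated, so these values are uncertain.

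The 7 markers of mammary epithelium and tumour (Epcam, Krt8, Krt18, Krt5, Krt14, Cdh1 and Wnt1) were all at 1 TPM or more in every group mean. On day 4 their summed level was 2318 to 2921 TPM in vehicle and, at 50 mg/kg, 2983 to 3110 TPM, without overlap. On day 8 the ranges were 2757 to 3404 and 2893 to 4626 TPM. The 10 plasma and B cell markers, of interest because plasma cells are rich in these chaperones, summed to 35.8 to 47.5 TPM in vehicle against 30.2 to 46.6 TPM at 50 mg/kg on day 4. On day 8 they summed to 23.0 to 59.9 and 43.8 to 103 TPM. Over all libraries the median was 19.4 TPM for Pou2af1, 8.5 TPM for Ighm and 4.2 TPM for Igkc. The medians of the other markers of this list were 0.89 TPM or less, and the plasma cell receptor gene Tnfrsf17 was listed at 0 in 16 libraries. The 8 macrophage markers overlapped between these groups on both days, with 397 to 846 and 552 to 1235 TPM on day 4 and 364 to 901 and 735 to 909 TPM on day 8. The 8 fibroblast markers summed to 899 to 1914 and 909 to 1947 TPM on day 4, and the 7 endothelial ones to 102 to 116 and 112 to 139 TPM. The 7 skeletal muscle markers ranged from 9.23 to 722 TPM across all libraries. The 6 erythroid markers lay at 90.2 to 118 TPM in the day 4 vehicle group, at 16.6 to 69.8 TPM at 25 mg/kg and at 7.07 to 156 TPM at 50 mg/kg, with medians of 104, 42.1 and 13.1 TPM. The part of these cell types in the results below was not tested, and in whole tumours fewer cells of a type and less RNA per cell cannot be told apart.

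After 3 days at 50 mg/kg, BiP, Manf, Creld2, calnexin, Pdia4 and Atf6b fell, with log2 fold changes of -0.26 to -0.52, while Atf6, the BiP partners Sil1 and Dnajb9 and the degradation genes Herpud1 and Sel1l rose. Of the 34 members, 5 were higher and 6 were lower at an adjusted p under 0.05 (limma on log2(TPM + 1), Benjamini-Hochberg over 15736 genes). In the same comparison 4.95% of all genes tested were called higher and 4.31% lower. The share of all genes whose groups did not overlap was not counted for any comparison. Where groups are said below not to overlap, this only describes the values. The log2 fold change was negative for 23 of the 34, with a median of -0.11, against a median of 0.03 over all genes. Nothing in the labels ties the 4 libraries of a group to separate animals, and these p-values therefore cover the spread among the samples, which may be technical in part.

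**Figure D2:**
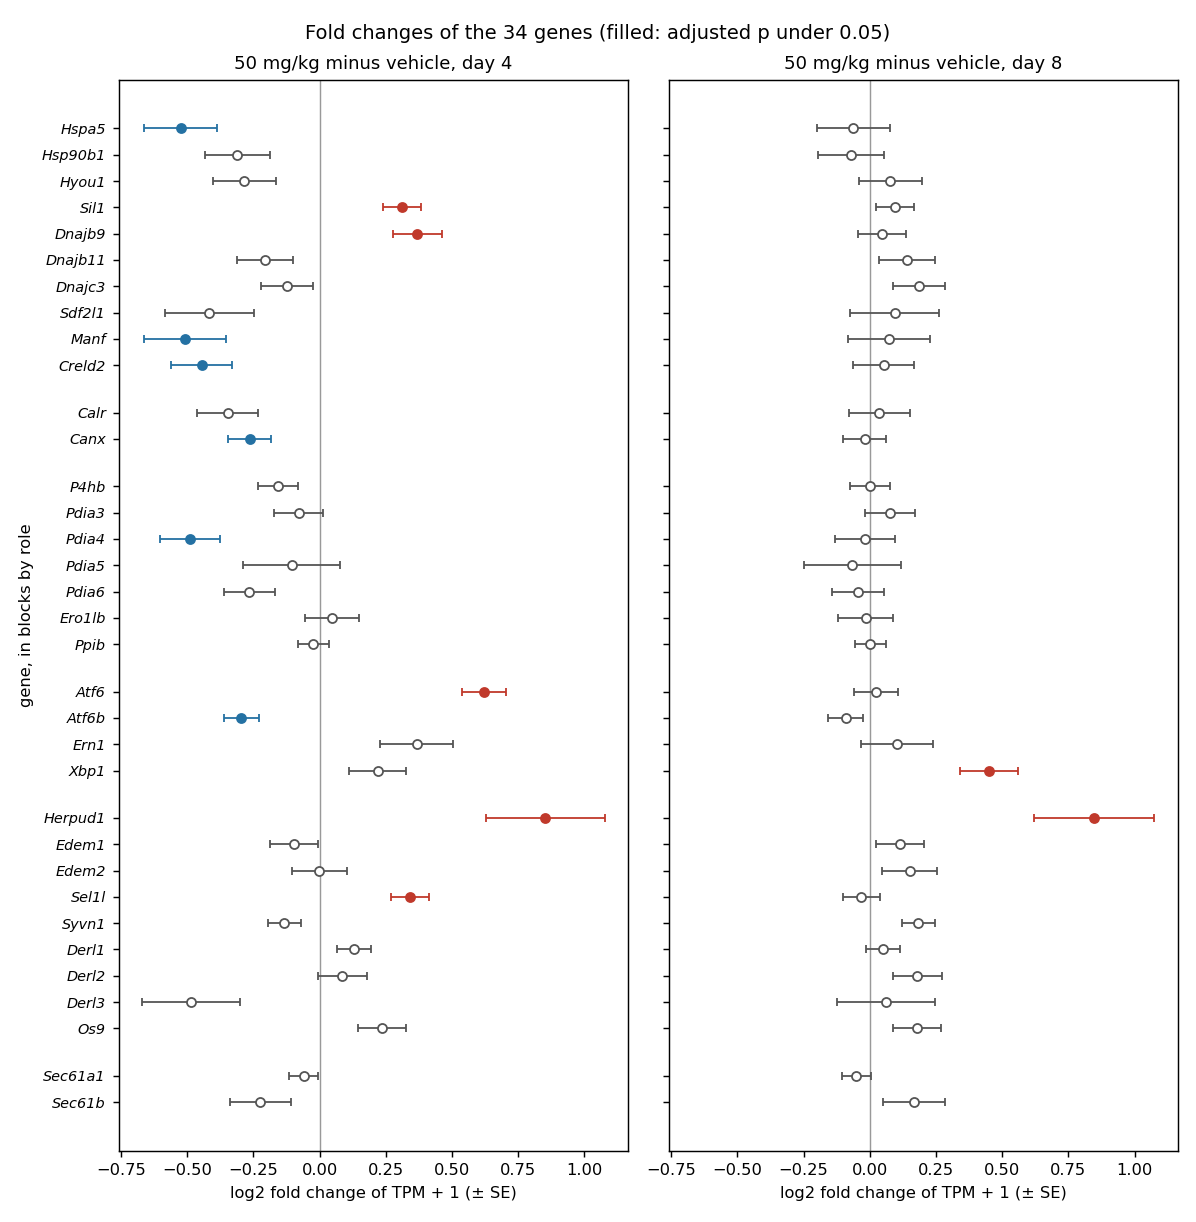
Log2 fold change with its standard error (x axis) of each of the 34 genes (y axis, by role) for 50 mg/kg minus vehicle on day 4 and on day 8, filled where the adjusted p is under 0.05. On day 4 there are 11 filled points in both directions, and on day 8 the 2 filled points are Xbp1 and Herpud1, both higher.

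Of the 10 luminal chaperones and their partners, 3 fell, 2 rose and 8 had a negative change, with a median of -0.30. BiP, encoded by Hspa5 (chr2:34771970-34777547, plus strand, GRCm38), is the chief HSP70 chaperone of the ER and holds the sensors inactive. Hspa5 was at 429, 354, 373 and 347 TPM in the vehicle libraries and at 296, 231, 261 and 257 TPM at 50 mg/kg. Every treated library lay below every vehicle library, and the mean went from 376 ± 37.0 to 261 ± 26.5 TPM (SD, n = 4). The log2 fold change was -0.52 (SE 0.14, 95% confidence interval -0.81 to -0.24, adjusted p = 0.0213). The call was lost without vehicle library 1 (0.0708) or 3 (0.0506), or without treated library 2 (0.0634) or 3 (0.0544).

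Manf (chr9:106838312-106891979, minus strand) encodes a small ER protein that binds BiP and can be secreted. Manf stood at 334, 282, 259 and 244 TPM in vehicle and at 208, 183, 200 and 191 TPM at 50 mg/kg. Again the groups did not overlap, and the log2 fold change was -0.51 (SE 0.15, adjusted p = 0.0426). Creld2 (chr15:88819646-88826683, plus strand), an ER protein with EGF-like repeats that is induced by ER stress, read 36.3, 32.0, 29.4 and 25.8 TPM in vehicle and, at 50 mg/kg, 23.2, 20.97, 21.1 and 23.8 TPM. The change was -0.45 (SE 0.12, adjusted p = 0.0193), with the lowest vehicle library just above the highest treated one. For Manf the call was lost without vehicle library 1, 2 or 3 or any 1 treated library (adjusted p 0.0616 to 0.132) and with no filter on low values (0.0791), and for Creld2 without vehicle library 1 (0.0722) or treated library 2 (0.0515) or 3 (0.0621).

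Both luminal members that rose are partners of BiP, but so are Manf, Hyou1, Dnajb11 and Dnajc3, whose changes were negative. Sil1 (chr18:35266396-35499780, minus strand), a nucleotide exchange factor that releases BiP from its clients, went from 14.8, 15.3, 14.1 and 14.9 TPM to 18.3, 20.1, 18.4 and 17.7 TPM. Its log2 fold change was 0.31 (SE 0.07, adjusted p = 0.0101), with all treated libraries above all vehicle ones. Dnajb9 (chr12:44205559-44210326, minus strand) encodes ERdj4, a J-domain partner of BiP that is also known to repress IRE1. The 4 vehicle libraries were within 23.6 to 24.5 TPM and the treated ones read 30.4, 31.5, 32.6 and 30.5 TPM, again with no overlap. Dnajb9 rose by 0.37 (SE 0.09, adjusted p = 0.0156), and this call was lost without treated library 3 (0.0533).

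The other 5 luminal genes did not pass. Hsp90b1 (chr10:86690209-86705509, minus strand), which encodes GRP94, had 659, 545, 500.5 and 514 TPM in vehicle against 482, 391, 468 and 443 TPM at 50 mg/kg. These groups did not overlap either, but the log2 fold change of -0.31 had an adjusted p of 0.118. Hyou1, a large HSP70 relative that acts as an exchange factor for BiP, also did not overlap between groups, at 56.0 to 68.4 and 45.9 to 51.4 TPM (log2 fold change -0.28, adjusted p = 0.137). Sdf2l1, a partner of the BiP co-chaperone Dnajb11, had a change of -0.42 (adjusted p = 0.12), Dnajb11 one of -0.20 (0.222) and the J-domain co-chaperone Dnajc3 one of -0.12 (0.456).

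Summed over the 10 luminal genes, the level was 1718, 1434, 1369 and 1347 TPM in the day 4 vehicle libraries. It was 1224, 1029, 1165 and 1105 TPM at 50 mg/kg, so the highest treated library was below the lowest vehicle library. The 25 mg/kg libraries, at 1127 to 1431 TPM, overlapped with both groups. Summed over the 9 degradation genes, the order was the opposite, with 329 to 344 TPM in vehicle, 334 to 358 TPM at 25 mg/kg and 379 to 418 TPM at 50 mg/kg. Hspa5 and Hsp90b1 make up most of the first sum, so it follows these genes. Most of the rise in the second sum lies in Herpud1. The mean of that sum went from 336 to 397 TPM with 50 mg/kg, and the mean of Herpud1 alone from 52.2 to 99.2 TPM. Treated library 4 held the highest sum, 418 TPM, and the highest Herpud1 value, 154 TPM. Of the 9 genes, 4 had a negative change, so the second sum does not show that the degradation genes rose as a block.

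**Figure D3:**
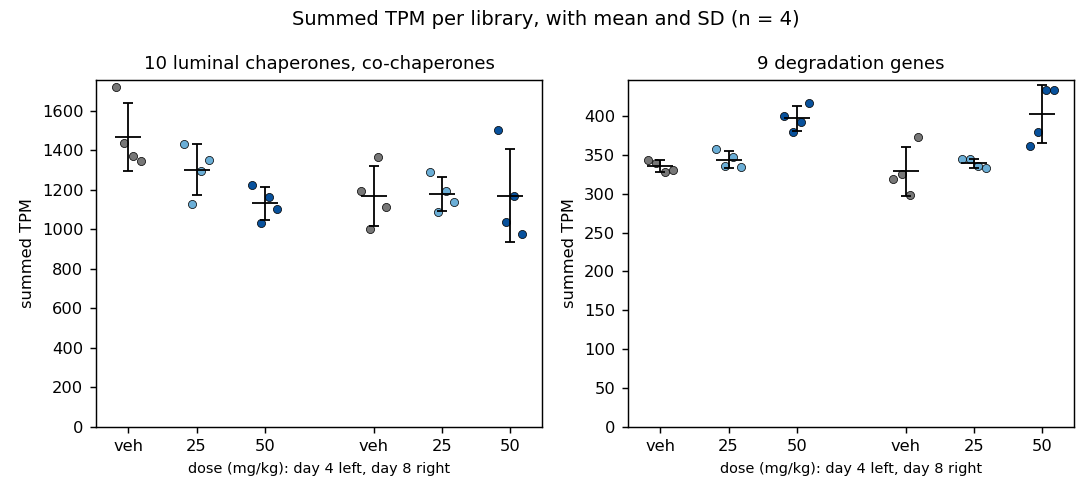
Summed TPM (y axis) of the 10 luminal chaperone genes and of the 9 degradation genes in each library (points) of the 6 groups, with the mean and SD. On day 4 the chaperone sum is 1347 to 1718 TPM in vehicle and, at 50 mg/kg, 1029 to 1224 TPM. The degradation sum is 329 to 344 and 379 to 418 TPM, of which Herpud1 averaged 52.2 and 99.2 TPM.

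Among the lectin chaperones, which hold glycoproteins during folding, calnexin fell and calreticulin did not pass. Canx (chr11:50293961-50325673, minus strand) read 409.8, 371, 338 and 371 TPM in vehicle against 306, 322, 319.9 and 290.0 TPM at 50 mg/kg. The groups did not overlap, and the log2 fold change was -0.26 (SE 0.08, adjusted p = 0.0445). That call was lost without any 1 of vehicle libraries 1, 2 and 4 or any 1 treated library (adjusted p 0.06 to 0.136), and with no filter (0.0761). Calr had 1307, 1102, 1023 and 1054 TPM in vehicle and, at 50 mg/kg, 879.6, 922, 927 and 791 TPM, without overlap, with a log2 fold change of -0.35 and an adjusted p of 0.0616.

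Of the 7 oxidoreductases and isomerases, Pdia4 alone fell, 6 changes were negative and the median was -0.11. Pdia4 (chr6:47796141-47813430, minus strand) encodes ERp72, a disulfide isomerase found in complexes with BiP. Pdia4 was at 231, 188, 174 and 191 TPM in vehicle and at 146, 137, 141 and 131 TPM at 50 mg/kg. The lowest vehicle library exceeded the highest treated one by more than the whole treated range, and the log2 fold change was -0.49 (SE 0.11, adjusted p = 0.0105). Pdia6, a related isomerase, did not overlap between the groups at 168 to 207 and 142 to 159 TPM (-0.27, adjusted p = 0.0876). The general isomerase P4hb had a change of -0.16 (adjusted p = 0.198), and Pdia3, the partner of the lectin chaperones, one of -0.08 (0.638). Pdia5, the oxidase gene Ero1lb and the cyclophilin gene Ppib had changes of -0.11, 0.05 and -0.02, with adjusted p-values of 0.764 to 0.841.

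Among the 4 sensors and transcription factors, 1 rose and 1 fell. Atf6 (chr1:170704674-170867771, minus strand) encodes the membrane-bound precursor of the factor that drives chaperone genes. Atf6 read 13.3, 14.6, 14.6 and 14.3 TPM in vehicle against 20.7, 21.8, 22.3 and 24.9 TPM at 50 mg/kg. The highest vehicle library was 14.6 TPM and the lowest treated one 20.7, and the log2 fold change of 0.62 (SE 0.08, adjusted p = 7.38e-05) had the smallest p of the 34. Its paralogue Atf6b (chr17:34647146-34655074, plus strand), often described as the weaker activator, went the other way, from 60.8, 53.4, 53.9 and 52.8 TPM to 44.5, 47.5, 44.3 and 42.8 TPM. Atf6b fell by 0.30 (SE 0.07, adjusted p = 0.00914), with no overlap.

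Ern1 (chr11:106394650-106487852, minus strand), the gene of IRE1, had 9.27, 11.9, 9.58 and 11.5 TPM in vehicle and, at 50 mg/kg, 14.3, 15.2, 13.6 and 12.4 TPM. The groups did not overlap, but the log2 fold change of 0.37 did not pass (adjusted p = 0.0987). Xbp1 (chr11:5520659-5525893, plus strand), whose mRNA IRE1 splices, read 105, 94.8, 96.6 and 108 TPM in vehicle against 109.5, 132, 128 and 104 TPM at 50 mg/kg. Xbp1 overlapped between the groups and had a log2 fold change of 0.22 (adjusted p = 0.208).

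Of the 9 degradation genes, 2 rose and 0 fell (limma, with 2 lower at an unadjusted p under 0.05), with a median of 0.09. Herpud1 (chr8:94386438-94395377, plus strand) encodes a membrane protein that organises the HRD1 degradation complex. Its vehicle libraries read 43.5, 57.2, 60.3 and 48.0 TPM and its treated ones 89.4, 65.5, 87.2 and 154 TPM. Treated library 4 stood highest and treated library 2 was close to the vehicle range, yet the groups did not overlap and the log2 fold change was 0.85 (SE 0.23, adjusted p = 0.0219). It was 0.62 without treated library 4 (adjusted p = 0.0676), and the call was also lost without vehicle library 1 (0.0678) or 4 (0.0578).

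Sel1l (chr12:91806043-91849157, minus strand) encodes the adaptor that brings clients to the same complex. It rose from 35.1, 31.8, 32.5 and 31.9 TPM to 42.3, 43.0, 45.1 and 37.2 TPM, without overlap (log2 fold change 0.34, SE 0.07, adjusted p = 0.00469). The ubiquitin ligase of that complex, HRD1, is encoded by Syvn1, which had a change of -0.13 (adjusted p = 0.186). The lectin Os9 had 0.24 (adjusted p = 0.109), and the channel-like derlins Derl1, Derl2 and Derl3 had 0.13 (0.212), 0.09 (0.593) and -0.48 (0.106). Derl3 did not overlap between groups, at 2.83 to 3.93 TPM in vehicle and, at 50 mg/kg, 1.77 to 2.44 TPM. Edem1 and Edem2, mannosidases that mark misfolded glycoproteins, had -0.10 and -0.00 (adjusted p = 0.544 and 0.997). The translocon genes Sec61a1 and Sec61b had -0.06 (0.535) and -0.22 (0.228).

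**Figure D4:**
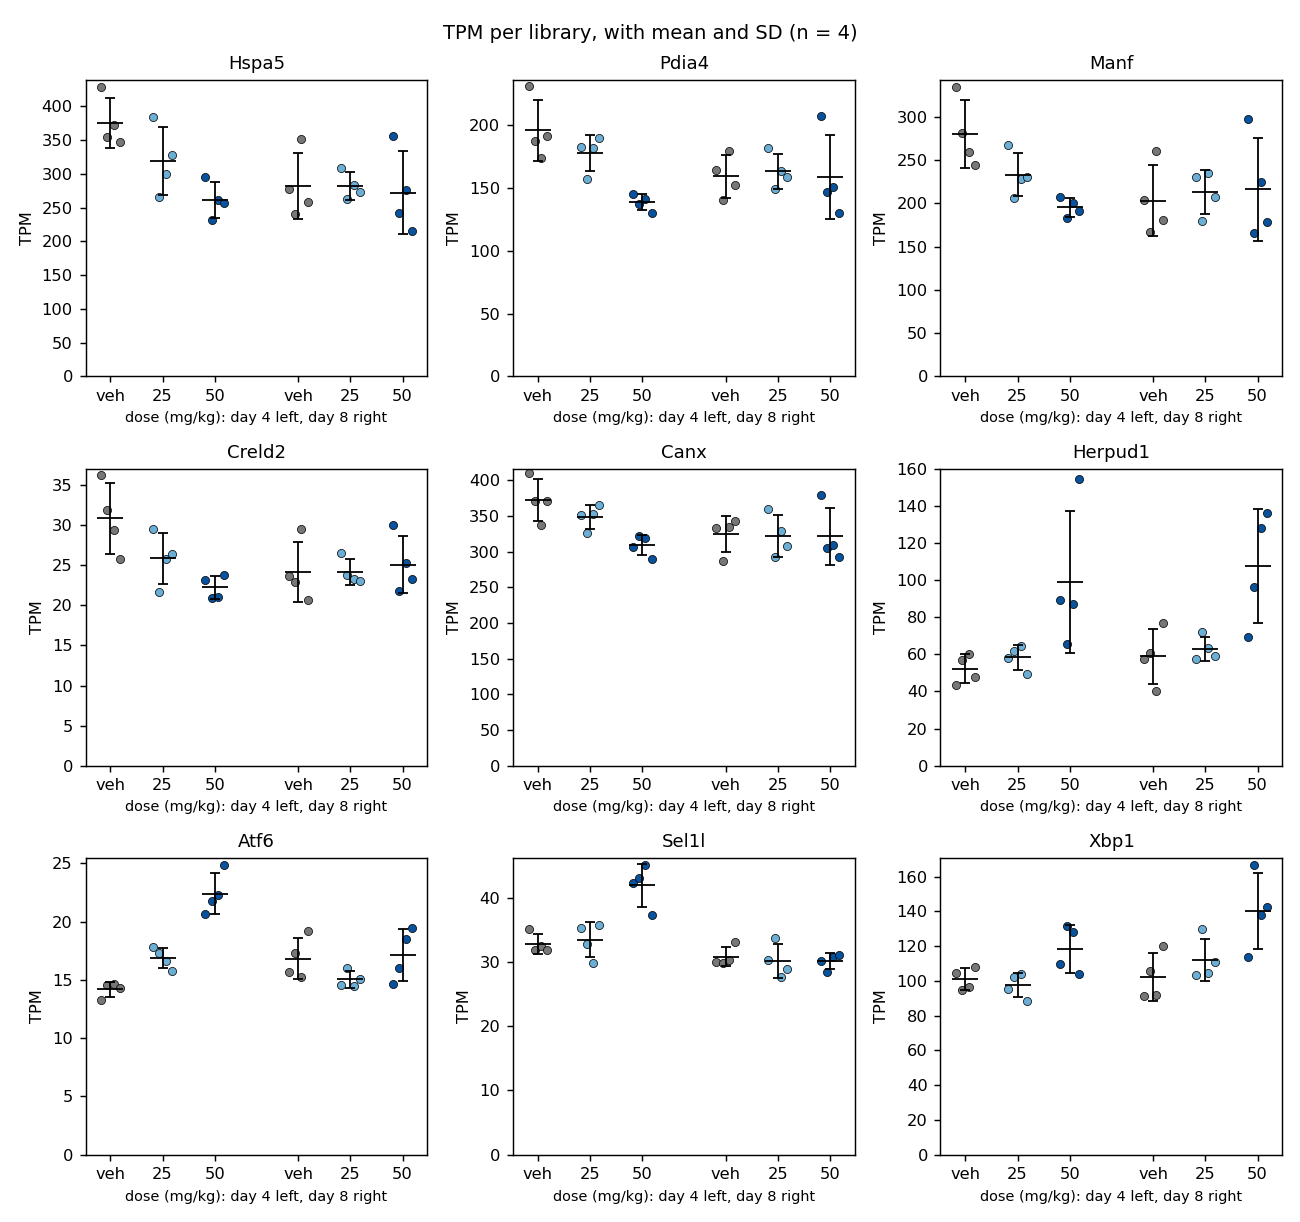
TPM (y axis) of 9 members in each library (points) of the 6 groups, with the mean and SD of 4 libraries. On day 4 Hspa5, Pdia4, Manf, Creld2 and Canx are lower at 50 mg/kg than in vehicle while Atf6, Sel1l and Herpud1 are higher, and on day 8 Herpud1 and Xbp1 are higher at 50 mg/kg on average with overlapping points.

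Of these 11 calls, 5 held under each of the 17 alternative settings tried, those of Atf6, Atf6b, Pdia4, Sel1l and Sil1. The number of members called dropped to 6 without vehicle library 1 or treated library 3 and to 7 without treated library 2. With limma's library weights, 8 members were called higher and 9 lower.

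Set against the promoter sequences shown above, the 10 ERSE carriers included 3 that fell (Hspa5, Creld2 and Canx) and 0 that rose, with 9 negative changes and a median log2 fold change of -0.29 (range -0.52 to 0.05). The 18 members whose promoter held no exact ERSE match included 3 that rose and 2 that fell, with 11 negative changes and a median of -0.05 (range -0.49 to 0.85). For Dnajb9, which rose, the window searched (chr12:44210019-44210318) lay inside the annotated gene, so no sequence upstream of that gene was searched. Manf, Atf6 and Sil1, also called on day 4, had no promoter entry and are not in this split. Herpud1, the gene with the largest rise, was the member with both ERSE-II and the ATF4-type letters, and Dnajb11, the other ERSE-II gene, had -0.20. The ATF4-type search was added after the values were seen, and its letters occur in 3.57% of these members and 4.51% of all genes. Dnajb9 and Sel1l, which also rose, held none of the elements searched. On day 8 the same medians were 0.01 for carriers and 0.10 for the others.

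Genes of the same pathways outside the members were counted in 6 wider lists, drawn up with earlier results of these data known. On day 4 at 50 mg/kg, of 32 folding enzymes tested, 4 fell and 0 rose, with a median log2 fold change of -0.06. P4ha1, the catalytic subunit of collagen prolyl hydroxylase, fell from 36.7 ± 0.73 to 24.1 ± 2.85 TPM (-0.60, adjusted p = 0.00181), and the lysyl hydroxylase gene Plod1 from 49.7 ± 3.66 to 36.8 ± 2.46 TPM (-0.42, 0.000305). Both modify collagen, and both calls held under the 17 alternative settings. The peroxiredoxin gene Prdx4 (-0.38, adjusted p = 0.0477) and the isomerase gene Fkbp2 (-0.26, 0.0354) also fell. Leaving out vehicle library 1, 2 or 3 or treated library 1, 2 or 3 ended the call of Prdx4 (0.0535 to 0.17), and leaving out vehicle library 1 or 4 or treated library 1, 3 or 4 that of Fkbp2 (0.062 to 0.126). The call of Prdx4 was also lost with no filter (0.0832) and with median-ratio scaling (0.0527), and that of Fkbp2 with no filter (0.0568) and in a fit of these groups alone (0.093).

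Of 36 genes of translocation, signal peptidase and N-glycosylation, 8 fell and 1 rose, with a median of -0.10. Ssr1, a subunit of the translocon-associated complex, fell from 36.2 ± 1.89 to 26.5 ± 1.25 TPM (-0.43, adjusted p = 0.00286), and Srp14 of the signal recognition particle from 144 ± 3.61 to 119 ± 4.42 TPM (-0.27, 0.00247). The channel subunit gene Sec61g changed by -0.31 (adjusted p = 0.0178) and the signal peptidase gene Spcs3 by -0.30 (0.0225). Prkcsh, the β subunit of glucosidase II, rose by 0.24 (adjusted p = 0.00723). The call of Sec61g was lost without vehicle or treated library 2 (0.0518 and 0.0573), and that of Spcs3 without vehicle library 1 or 4 or treated library 2 or 3 (0.0544 to 0.0695).

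In the degradation list of 26 genes, 6 rose and 2 fell (median 0.05). Herpud2, a paralogue of Herpud1, rose from 29.5 ± 2.04 to 40.8 ± 2.52 TPM (0.46, adjusted p = 0.00396). Ngly1, which removes glycans from retrotranslocated proteins, rose by 0.43 (adjusted p = 0.00432, with an exon overlap on the opposite strand), and the mannosidase gene Man1b1 by 0.32 (0.0338). Vcp, the ATPase that pulls clients out of the membrane, fell from 183 ± 3.70 to 150 ± 16.2 TPM (-0.29, adjusted p = 0.0148), and Vimp, a membrane partner of VCP, also fell (-0.32, 0.00721). The call of Man1b1 was lost without vehicle library 1, 3 or 4 or treated library 2 or 3 (0.0577 to 0.11), with no filter (0.0559) and in a fit of these groups alone (0.0555).

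Of 27 genes of COPII transport and retrieval, which carry cargo out of the ER and return escaped chaperones, 6 fell and 1 rose (median -0.08). The coat gene Sec24d fell from 31.1 ± 2.99 to 18.2 ± 3.40 TPM (-0.75, adjusted p = 0.000133). Receptors for the retrieval signal of luminal chaperones also fell, Kdelr3 from 19.1 ± 2.15 to 11.97 ± 2.43 TPM (-0.64, 0.0195, with an exon overlap on the opposite strand) and Kdelr2 from 89.9 ± 4.15 to 68.1 ± 3.66 TPM (-0.40, 0.00623). The coat gene Sec23a changed by -0.24 (adjusted p = 0.0345) and the cargo receptor gene Mcfd2 by 0.24 (0.0255). The call of Kdelr3 was lost without vehicle library 1 or 3 or treated library 2 or 3 (0.0582 to 0.0725), that of Sec23a without vehicle library 1, 3 or 4 or treated library 2, 3 or 4 (0.0617 to 0.116), and that of Mcfd2 without vehicle library 2, 3 or 4 or treated library 1, 2 or 3 (0.0545 to 0.0801). In a fit of these groups alone the calls of Sec23a (0.0525) and Mcfd2 (0.0619) were lost too.

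Of the sensors and transcription factors outside the members, 13 of 15 were tested and 1 rose. This was Mbtps1, the protease that makes the first cut in ATF6, from 89.8 ± 3.56 to 101 ± 4.56 TPM (0.16, adjusted p = 0.0338), a call lost without vehicle library 3 or 4 or treated library 2 or 3 (0.0921 to 0.106) under both rescalings of the libraries (0.113 and 0.128) and in a fit of these groups alone (0.0877). Of 12 genes listed for the arm of the response that runs through PERK and ATF4, 9 were higher and 0 lower in the same libraries. The median of the 12 was 1.60, and whether PERK itself was active was not tested. The largest rises in this list were those of Asns (2.66, adjusted p = 2.01e-09), Atf5 (2.64, 2.53e-09, with an exon overlap on the opposite strand), Chac1 (2.56, 0.000411) and Stc2 (2.46, 0.000128). At 50 mg/kg Chac1 and Stc2 varied widely, at 12.5 ± 10.6 and 21.4 ± 11.3 TPM. Atf4 itself (0.35, adjusted p = 0.104), Atf3 (0.30, 0.362) and Vegfa (-0.56, 0.139) did not pass. Over the alternative settings the numbers that fell ranged from 2 to 7 folding enzymes, 3 to 12 translocation and glycosylation genes and 3 to 10 transport genes. The numbers that rose ranged from 5 to 10 degradation genes and 7 to 9 genes of the ATF4 arm.

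After 7 days at 50 mg/kg 2 members rose, Xbp1 and Herpud1, and no chaperone passed the test in either direction. By limma 0 members were lower, and at an unadjusted p under 0.05 there were 3 higher and 0 lower. Over all genes tested, 0.763% were called higher and 2.02% lower after adjustment, and 6.49% and 11.4% before it. The median log2 fold change was 0.06 for the 34 members, 23 of them positive, and -0.02 for all genes. The vehicle groups of each day served all comparisons of that day, so the 25 and 50 mg/kg results share their controls.

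Xbp1 read 91.3, 105, 91.8 and 120 TPM in the day 8 vehicle libraries and 114, 167, 138 and 143 TPM at 50 mg/kg. Vehicle library 4 exceeded the lowest treated library, and the others did not overlap. The mean was 102 ± 13.8 TPM in vehicle and 140 ± 21.7 TPM in treated tumours (SD, n = 4). The log2 fold change was 0.45 (SE 0.11, 95% confidence interval 0.22 to 0.68, adjusted p = 0.0288). Herpud1 read 57.5, 60.9, 40.3 and 76.9 TPM in vehicle against 69.4, 96.2, 128 and 136 TPM at 50 mg/kg, with overlap of 1 library from each group. Herpud1 rose by 0.85 (SE 0.23, 95% confidence interval 0.38 to 1.32, adjusted p = 0.0462). Both calls were lost without vehicle library 1, 2 or 3 or treated library 2, 3 or 4, at 0.0554 to 0.149 for Herpud1 and 0.0578 to 0.0992 for Xbp1, in a fit of these groups alone (0.267 for each), and with no filter (0.0843 for Herpud1 and 0.0504 for Xbp1).

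For Hspa5, Hsp90b1, Atf6, Ern1 and Sel1l the groups overlapped on day 8, and none of the 5 passed. Hspa5 was at 278, 240.0, 352 and 258 TPM in vehicle and, at 50 mg/kg, 356, 241, 275 and 215 TPM, with the highest and the lowest value both in the treated group. Its log2 fold change was -0.06 (95% confidence interval -0.35 to 0.22, adjusted p = 0.859). Hsp90b1 read 501, 393, 512 and 447 TPM in vehicle against 583, 422, 424 and 353 TPM at 50 mg/kg, and its change of -0.07 had an interval of -0.33 to 0.19 (adjusted p = 0.813). Atf6 read 15.6, 17.3, 15.2 and 19.2 TPM in vehicle and, at 50 mg/kg, 14.6, 16.0, 18.5 and 19.4 TPM, almost the same range (0.02, interval -0.15 to 0.20, adjusted p = 0.92). Ern1, at 8.43 to 15.4 and 9.70 to 14.9 TPM, had a change of 0.10 (interval -0.18 to 0.39, adjusted p = 0.748), and Sel1l, at 29.9 to 33.1 and 28.4 to 31.1 TPM, one of -0.03 (0.859).

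On day 8, 3 of the 146 wider-list genes tested were called higher and 7 lower by limma, against 0.763% and 2.02% of all genes. Plod1 fell from 51.9 ± 2.34 to 29.1 ± 0.94 TPM (-0.81, adjusted p = 6.85e-07) and P4ha1 from 38.5 ± 5.49 to 20.8 ± 2.20 TPM (-0.85, 0.000226). Ero1l, the main oxidase of disulfide isomerase, also fell (-0.72, adjusted p = 0.0128, but 0.0584 without vehicle library 1). Of the translocation and glycosylation list, the signal peptidase gene Sec11c rose (0.45, adjusted p = 0.032), and Magt1 (-0.27, 0.0422) and Srp54a (-0.16, 0.0301) fell. Sec23a was the 1 transport gene that fell (-0.28, adjusted p = 0.0369). Each of these last 4 calls was lost without vehicle library 1 or 3 or treated library 3, and all but that of Sec11c without treated library 2, with adjusted p-values of 0.0572 to 0.127. Those of Magt1 and Sec23a were also lost without treated library 4 (0.113 and 0.082) and that of Sec11c without vehicle library 2 (0.117). Median-ratio scaling ended the calls of Magt1 (0.0685), Sec23a (0.0606) and Srp54a (0.148), quantile normalization those of Magt1 (0.072) and Sec23a (0.0559), and no filter those of Magt1 (0.053) and Sec11c (0.0534). The degradation and sensor lists had 0 calls by limma (3 genes higher and 2 lower at an unadjusted p under 0.05), and Creb3l2, with the smallest p of the sensor list, had a log2 fold change of -0.23 (adjusted p = 0.114). In the ATF4 arm Asns rose by 1.04 (adjusted p = 0.00109) and Atf5 by 0.98 (0.00305), while Vegfa was lower (-1.76, 0.000313). In a fit of these groups alone the calls of P4ha1 (0.065), Ero1l (0.238), Atf5 (0.181), Sec11c, Magt1, Srp54a and Sec23a (0.284 to 0.352) were lost.

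At 25 mg/kg no member passed on either day. On day 4, 0 of 34 members were called by limma, as were 0% of all genes higher and 0% lower. At an unadjusted p under 0.05 there were 2 higher members and 1 lower, against 2.28% and 2.33% of all genes. The 2 were Atf6, at 17.8, 17.3, 16.6 and 15.8 TPM (log2 fold change 0.24), and Dnajb9, at 26.6, 31.7, 28.7 and 28.4 TPM (0.26). All 4 libraries of each lay above all 4 vehicle libraries. Creld2, at 29.5, 21.7, 25.8 and 26.4 TPM, was the lower one, with a change of -0.24. Hspa5 read 384, 265, 300.0 and 328 TPM, between the other groups on average and overlapping with both, with a change of -0.24 (95% confidence interval -0.53 to 0.04). After adjustment every member's p was 0.914 or more.

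On day 8 at 25 mg/kg, 0 members were called again, with 0% of all genes higher and 0% lower. Syvn1 was the 1 member with an unadjusted p under 0.05, against 1.47% of all genes higher and 1.5% lower. Its vehicle libraries read 37.5, 36.5, 35.0 and 38.8 TPM, those at 25 mg/kg 44.4, 41.9, 44.2 and 43.4 TPM, and those at 50 mg/kg 42.9, 38.6, 44.1 and 42.8 TPM. The 25 mg/kg libraries all lay above vehicle (0.23, 95% confidence interval 0.10 to 0.36), and at 50 mg/kg 1 library fell within the vehicle range. Of the 146 wider-list genes tested, limma called 0 at 25 mg/kg on either day. At an unadjusted p under 0.05 there were 4 higher and 5 lower on day 4, and 5 higher and 6 lower on day 8. The smallest p of each list belonged to Fkbp11 (-0.25), Spcs2 (-0.13), Herpud2 (0.18), Copb2 (-0.09), Nfyc (-0.13) and Asns (0.44) on day 4. On day 8 it belonged to Ero1l (-0.42), Srp54a (-0.09), Aup1 (0.14), Arcn1 (-0.11), Mbtps2 (-0.15) and Atf3 (-0.65).

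Comparing the doses directly on day 4 gave 4 members with a difference, 3 of them higher at 50 than at 25 mg/kg (background 1.15% of genes) and 1 lower (background 1%). Atf6 was higher by 0.39 (SE 0.08, 95% confidence interval 0.21 to 0.56, adjusted p = 0.0145). Its 3 day 4 groups stood in the order of dose with no overlap, although 25 mg/kg against vehicle did not pass. Sel1l, at 35.4, 32.9, 29.8 and 35.8 TPM at 25 mg/kg, was higher by 0.32 (adjusted p = 0.0167), and Sil1, at 15.5, 14.6, 16.0 and 14.2 TPM, by 0.29 (0.0369). Atf6b, at 57.2, 50.9, 54.1 and 53.7 TPM at 25 mg/kg, was lower at 50 mg/kg (-0.26, adjusted p = 0.0401). In all 4 genes the 25 mg/kg libraries lay apart from the 50 mg/kg ones. Hspa5 (-0.28, interval -0.57 to 0.01, adjusted p = 0.369), Pdia4 (-0.35, 0.126), Herpud1 (0.69, 0.139) and Xbp1 (0.27, 0.251) did not pass.

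Each of these 4 calls was lost without certain single libraries. The call of Atf6 was lost without library 4 of either dose (0.0726 at 25 and 0.0639 at 50 mg/kg), and that of Sel1l without library 3 of either (0.0738 and 0.0783). That of Sil1 was lost without any 1 of these libraries except library 3 at 25 mg/kg (0.0533 to 0.146), and that of Atf6b without any 1 except library 2 of either dose (0.0922 to 0.115). In a fit of these groups alone the calls of Sel1l (0.104), Sil1 (0.0948) and Atf6b (0.0659) were lost, as was that of Sil1 with quantile normalization (0.0581) and that of Atf6b with no filter (0.0507). Among the wider lists, Plod1 (-0.37, adjusted p = 0.00209), Sec24d (-0.61, 0.00217) and P4ha1 (-0.46, 0.029) were lower at 50 than at 25 mg/kg on day 4, and the calls of Plod1 and Sec24d held without any 1 library. Further calls were Srp14 (-0.22) and Sec23a (-0.28), lower, and Mcfd2 (0.31), Ube2j1 (0.18) and Aup1 (0.18, with an exon overlap on the opposite strand), higher. Each of these 5 lost its call without library 4 at 25 mg/kg (0.0786 to 0.141), among others. No sensor outside the members passed, with the smallest p for Mbtps1 (0.10, adjusted p = 0.312), while 7 genes of the ATF4 arm were higher, led by Chac1 (2.38), Asns (2.21), Atf5 (2.20) and Stc2 (1.59). P4ha1 lost its call without library 1 or 4 at 25 mg/kg or 2 or 4 at 50 mg/kg (0.0648 to 0.143), and Stc2 without library 2 or 3 at 25 mg/kg or 3 or 4 at 50 mg/kg (0.0504 to 0.071). In a fit of these groups alone Plod1 (0.0607), P4ha1 (0.107), Chac1 (0.056), Stc2 (0.0788) and the 5 further genes (0.0712 to 0.157) lost their calls, and Aup1 also did under both rescalings (0.108 and 0.0627).

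On day 8 limma called 0 members between the doses, against 0.229% of all genes higher and 0.852% lower at 50 mg/kg. Herpud1 had a difference of 0.72 (adjusted p = 0.114), with 57.3, 72.0, 63.4 and 59.4 TPM at 25 mg/kg. Xbp1 had 0.31 (0.154), with 103, 129.7, 105 and 111 TPM. In both genes the highest 25 mg/kg library exceeded the lowest at 50 mg/kg. At an unadjusted p under 0.05, Herpud1, Xbp1, Dnajb9 (0.22) and Dnajc3 (0.23) were the 4 members that were higher and 0 were lower, against 6.46% and 10.3% of all genes. Plod1 (-0.66, adjusted p = 2.77e-05) and P4ha1 (-0.64, 0.00849) were again lower at the higher dose, as was Vegfa (-1.39, 0.00798). The remaining lists had 0 calls, with the smallest p for Magt1 (-0.25), Ngly1 (0.23), Tmed10 (0.14) and Creb3l2 (-0.22).

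**Figure D5:**
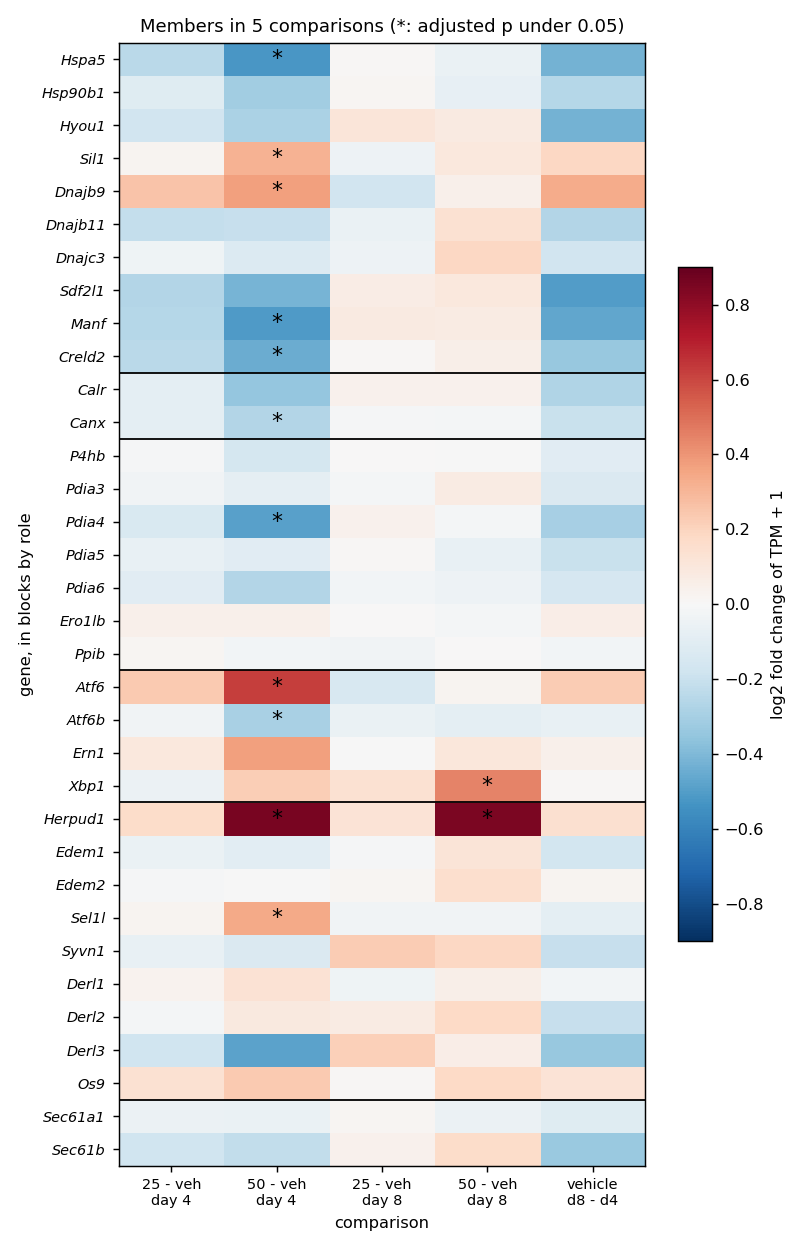
Log2 fold change (colour) of the 34 genes (rows, by role) in 5 comparisons (columns): 25 and 50 mg/kg minus vehicle on each day, and vehicle on day 8 minus day 4. An asterisk marks an adjusted p under 0.05. The 50 mg/kg column of day 4 holds 11 asterisks and that of day 8 holds 2, and the vehicle column has negative colours for 25 of 34 genes.

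Most members had lower values in the day 8 controls than in the day 4 controls, but none passed the threshold. Between the vehicle groups of day 8 and day 4, limma called 0 members, with 0% of all genes higher and 0% lower. At an unadjusted p under 0.05, 13 members were lower on day 8 and 3 higher, against 6.15% and 4.96% of all genes. The log2 fold change was negative for 25 of the 34, with a median of -0.16 against 0.01 over all genes. The 13 included 7 luminal and both lectin chaperones. Among them were Hyou1, from 56.0 to 68.4 TPM on day 4 to 35.7 to 53.4 TPM on day 8 (-0.43), Hspa5 (-0.42), Manf (-0.47), Sdf2l1 (-0.50) and Creld2 (-0.34). Of the 10 ERSE carriers, 9 had a negative change, with a median of -0.23. The 3 that were higher on day 8 were Dnajb9 (0.33), Atf6 (0.23) and Sil1 (0.19). After adjustment no member had a p below 0.332. The wider lists had 0 calls by limma (6 genes higher and 23 lower at an unadjusted p under 0.05), with the smallest p for Txndc11 (-0.26), Spcs3 (-0.27), Ubxn6 (0.35), Cnih1 (-0.28), Nfyc (-0.20) and Atf3 (0.92).

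The means of Hspa5 over the days stand side by side as follows. Hspa5 was at 376 ± 37.0 TPM in vehicle on day 4 and 282 ± 49.0 TPM on day 8, while at 50 mg/kg it was at 261 ± 26.5 and 272 ± 61.3 TPM. The difference between the days was thus larger in the vehicle means than in the treated means. Pdia4 had 196 ± 24.5 and 159 ± 16.8 TPM in vehicle against 139 ± 6.37 and 159 ± 33.8 TPM at 50 mg/kg. For Atf6 the larger difference was in the treated means, with 14.2 ± 0.63 and 16.8 ± 1.79 TPM in vehicle and, at 50 mg/kg, 22.4 ± 1.79 and 17.1 ± 2.20 TPM.

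The difference between the days in the effect of 50 mg/kg was tested as an interaction, and 1 member passed. For Atf6 the log2 effect was smaller on day 8, with a difference of -0.60 (SE 0.12, 95% confidence interval -0.85 to -0.35, adjusted p = 0.0127). Over all genes 0.35% were called higher and 1.09% lower in this test. The call of Atf6 was kept without any 1 library, and was lost in a fit of these 4 groups alone (0.0813). Sel1l (-0.37, adjusted p = 0.0616) and Syvn1 (0.32, 0.0808) came next. The chaperones that fell on day 4 had positive differences that did not pass, with Creld2 at 0.50 (adjusted p = 0.128), Pdia4 at 0.47 (0.143), Manf at 0.58 (0.185) and Hspa5 at 0.46 (interval 0.06 to 0.87, 0.237). At an unadjusted p under 0.05, 13 members had a positive difference and 4 a negative one, against 5.39% and 10.7% of all genes, and the median was 0.21 for the members and -0.06 for all genes. Herpud1 differed by -0.01 (95% confidence interval -0.67 to 0.66), a wide interval, and Xbp1 by 0.23 (adjusted p = 0.492). Outside the ATF4 arm 4 wider-list genes passed, Fkbp2 (0.43, adjusted p = 0.0487), Plod1 (-0.39, 0.0388), Srp14 (0.31, 0.0348) and Ube2j1 (-0.25, 0.0477), and each lost its call in 10 to 13 of the fits that left out 1 library, those without library 4 of the day 4 vehicle group included (0.0555 to 0.0787). In the ATF4 arm 5 genes had a smaller effect on day 8, led by Stc2 (-2.65), Trib3 (-1.84), Atf5 (-1.66) and Asns (-1.61). The call of Trib3 was lost without vehicle library 1 or 2 or treated library 3 of day 4, or treated library 3 of day 8 (0.0541 to 0.0668). In a fit of these 4 groups alone Fkbp2, Plod1, Srp14, Ube2j1 and Trib3 lost their calls (0.102 to 0.159). Quantile normalization ended those of Plod1, Srp14, Ube2j1 and Trib3 (0.0516 to 0.116), median-ratio scaling those of Plod1 (0.0976) and Ube2j1 (0.128), a pseudocount of 0.1 those of Fkbp2 (0.0507) and Ube2j1 (0.0503), and no filter that of Fkbp2 (0.0734).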

How the data were processed

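The labels' protocols name RNeasy for purification and a strand-specific SureSelect kit, with 1 µg of total RNA as input. The submitters' processing notes name bcl2fastq, Trimmomatic 0.36, STAR 2.5.0c, RSEM 1.2.31 and the build mm10 (GRCm38). For the annotation release, parameters and strand setting, nothing is given in the sources used here. The authors deposited 1 table of TPM values for 47729 genes in 24 libraries, summing to 1000000 per library. Read depth cannot be recovered from TPM, so no interval or floor based on counts is given, and a TPM value falls when abundant genes rise.

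Values were taken to log2(TPM + 1), a scale that understates the changes of low genes. A minimum of 1 TPM, reached in 4 or more libraries, left 15736 genes. These were fitted with limma 3.58.1 in R 4.3.3, with 6 group means, all 24 libraries, an intensity trend and 18 residual degrees of freedom. P-values are two-sided and adjusted by Benjamini-Hochberg over all genes tested, with a threshold of 0.05. The 34 members, their roles and the wider lists were chosen with earlier results of these data known, and no list was tested as a set. Members that passed in any comparison, and Hspa5, Hsp90b1, Xbp1, Atf6 and Ern1, are given by library. From each wider list up to 4 genes per direction that passed are named, or the 1 with the smallest p, except 1 gene that is not reported here. Coordinates are from GENCODE M21, which held 47224 of the identifiers, and promoters are from RefSeq (GRCm38.p6). The steps were tested on simulated data. No 2 libraries held identical values. Same-numbered libraries of compared groups did not deviate together throughout (correlations from -0.317 to 0.421). Those numbered 2 did correlate positively in every comparison within a day (0.144 to 0.421). The main fit did not treat the numbers as pairs, and whether they mark something shared is not known. Alternatives were pseudocounts of 0.1 and 5, no filter, a filter at 5 TPM, median-ratio scaling, quantile normalization, the compared groups alone, library weights, the replicate number as a block, and each library left out in turn.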

Additional observations from a re-analysis of the deposited data

Results flagged for a closer look

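In 9 of the 204 combinations of a member and a group, 1 of the 4 libraries lay far from the other 3, with a gap to the nearest of them that exceeded Dixon's 95% critical value for 4 samples on the log2 scale. Chance alone gives about 1 in 20. At 25 mg/kg, Dnajb9 read 31.25 TPM in library 2 of day 8 (others 25.34 to 25.94), Sec61a1 read 118.33 TPM in the same library (others 125.33 to 126.53), and Pdia5 read 12.45 TPM in library 1 of day 4 (others 9.08 to 9.58). At 50 mg/kg, Dnajb11 read 58.96 TPM in library 1 of day 4 (others 51.91 to 52.81) and Derl2 read 15.39 TPM in library 2 of day 8 (others 19.51 to 20.2). In vehicle, Atf6b read 60.76 TPM in library 1 of day 4 (others 52.79 to 53.93) and Os9 read 51.94 TPM in library 3 (others 60.6 to 61.86). On day 8, vehicle library 2 held 287.53 TPM of Canx (others 333.6 to 343.71) and vehicle library 4 held 33.05 TPM of Sel1l (others 29.91 to 30.37).

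The effect of 50 mg/kg on Atf6 differed between the days, with a difference of -0.60 (day 8 minus day 4) on the log2 scale.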

How the results depend on the processing

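The number of members called on day 4 at 50 mg/kg was 11, against 9 with no filter (without Manf and Canx), 17 with library weights and 6 to 9 when each library was left out in turn. On day 8 it was 2, against 0 with no filter, 0 in a fit of the groups compared alone, 6 with library weights and 0 to 2 when each library was left out. Between the doses on day 4 it was 4, against 2 with the groups compared alone, 7 with library weights and 1 to 3 when each library was left out. Between the doses on day 8 it was 0, against 6 with library weights and 0 to 1 when each library was left out. For the difference between the days it was 1, against 2 with median-ratio scaling, 2 with quantile normalization, 0 with the groups compared alone, 4 with library weights and 1 to 3 when each library was left out. The comparisons of 25 mg/kg with vehicle and of the vehicle groups gave 0 under every alternative. With the replicate number as a block the counts were 15, 2, 5, 0 and 1 in the same order, and among the wider genes named above Prdx4 on day 4 (0.0523) and Ube2j1 between the days (0.0545) lost their calls. The day 8 changes of 4 uncalled genes near 0 turned sign when 1 library was left out: Atf6 ranged from -0.0372 to 0.0911, Ern1 from -0.00772 to 0.259, Hsp90b1 from -0.209 to 0.0323 and Hspa5 from -0.2001 to 0.0487. The cause was not tested. No scaling moved the median of all genes by over 0.1. With 4 libraries a group and unknown depth, a gene without a call may still have changed by an amount within its interval, where 1 is given.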
